A study of Mus musculus with 12 samples.

Results

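The genes described here encode parts of the Notch pathway in embryonic mouse brain. They are the ligands Dll1, Dll3 and Jag1, the receptor Notch1, the modulator Mfng, and the effectors Hes1, Hes5, Hey1, Hey2 and Nrarp. They were chosen by name, as all probe sets that the platform table ties to a single symbol among these 10 genes. That gave 13 of the 45037 probe sets on the array, or 10 of 17097 genes, with 7 genes on 1 probe set and Jag1, Notch1 and Nrarp on 2.

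In the YAP experiment, whole forebrain and midbrain at E11.5 was taken from embryos carrying TetO-YAP1 and Nes-rtTA (YAP overexpression, 3 arrays) and from embryos with Nes-rtTA alone (YAP control, 3 arrays). TetO-YAP1 is a doxycycline-inducible YAP1-S127A transgene, and Nes-rtTA places its driver under the Nestin promoter, which acts in neural progenitors. Dams were fed doxycycline at 200 mg/kg of food from E7.5, and the controls carried the driver; whether control embryos came from the same fed dams is not stated in the labels. In the Nf2 experiment, dorsal telencephalon at E13.5 was taken from Nf2F/F;Emx1-Cre embryos (Nf2 knockout, 3 arrays) and from Nf2F/+;Emx1-Cre embryos (Nf2 control, 3 arrays). Those controls carried the same Cre and had lost 1 Nf2 allele in the cells that express it. The genetic background was mixed in all 4 groups. YAP is a transcriptional co-activator held back by the Hippo kinases, and Nf2 encodes Merlin, which acts upstream of those kinases. The labels do not say whether the 3 arrays of a group came from separate embryos, so each p-value speaks only to the spread among these arrays, part of which may be technical.

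Notch signalling passes between touching cells. A ligand on one cell causes cleavage of the receptor on its neighbour, and the freed intracellular part joins the DNA-binding protein Rbpj to switch on effector genes. In the embryonic brain this keeps neural progenitors undifferentiated, because Hes and Hey repressors hold down proneural genes such as Neurog2, while cells that commit to neurogenesis express Dll1 and present it to the progenitors around them. Hes1 also receives inputs other than Notch.

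Values are log2 intensities, and the experiments appeared to have been normalized apart, with array medians of 5.03 to 5.1 in the YAP experiment and 4.3 to 4.42 in the other. For that reason levels were compared only within an experiment, and never between probe sets. A change is a difference of group means on the log2 scale, its SE comes from a limma model fitted to all 17097 genes, and a gene was called, and is said to have risen or fallen, at a Benjamini-Hochberg adjusted p under 0.05. Yap1 read 11.35, 11.23 and 11.33 with YAP overexpression, against 11.07, 10.99 and 11.05 in YAP controls, and was not called (limma adjusted p = 0.0551). Whether its probes match the transgene is not known. Nf2 read 8.06, 8.27 and 8.11 in Nf2 knockouts, against 8.41, 8.66 and 8.51 in Nf2 controls, and was not called (limma adjusted p = 0.246). Its probes may lie outside the deleted part. Of 5 reporter genes of YAP, 4 rose with YAP overexpression and 3 with Nf2 knockout, the way the labels say. Ccn2 rose by 2.50 with YAP overexpression and 2.03 with Nf2 knockout. Ccn1 rose by 1.93 and 1.02, and Amotl2 by 0.73 and 0.73. Lats2 rose by 0.97 with YAP overexpression on its brightest probe set, a call lost under 3 of 22 alternative settings. Another of its probe sets rose by 0.61, and the rest differed by -0.10 to 0.13 and were not called. With Nf2 knockout no probe set of Lats2 was called, and its brightest differed by 0.27. The brighter probe set of Ankrd1 was not called in either experiment. Its other probe set rose by 0.58 with YAP overexpression (limma adjusted p = 0.0051 over all probe sets). Of 4 genes of the midbrain, En1, En2 and Pax7 lay below the array median on all Nf2 arrays and Otx2, at means of 8.37 in Nf2 knockouts and 8.36 in Nf2 controls, lay above it, and Emx1, Emx2 and Lhx2, genes of the dorsal telencephalon, lay above it on all of them.

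With YAP overexpression Hes1 rose while Hey1, Nrarp, Mfng, Dll1 and Dll3 fell. Notch1, Jag1, Hes5 and Hey2 were not called. In all, 1 of the 10 genes rose and 5 fell, where 6.31% of all genes were called, 2.67% higher and 3.64% lower (456 and 622 genes, or 528 and 472 with arrays centred on their medians, and 526 and 533 with quantile scaling). The median change of the 10 was -0.53, against -0.01 for the whole array. No array of one group lay within the other for 8 of the 10 genes, 2 higher and 6 lower, where this held for 21.3% of all genes, 9.72% higher (1662 genes), the rest lower (1974 genes). The plot of log2 intensities in the YAP experiment shows each array.

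**Figure D1:**
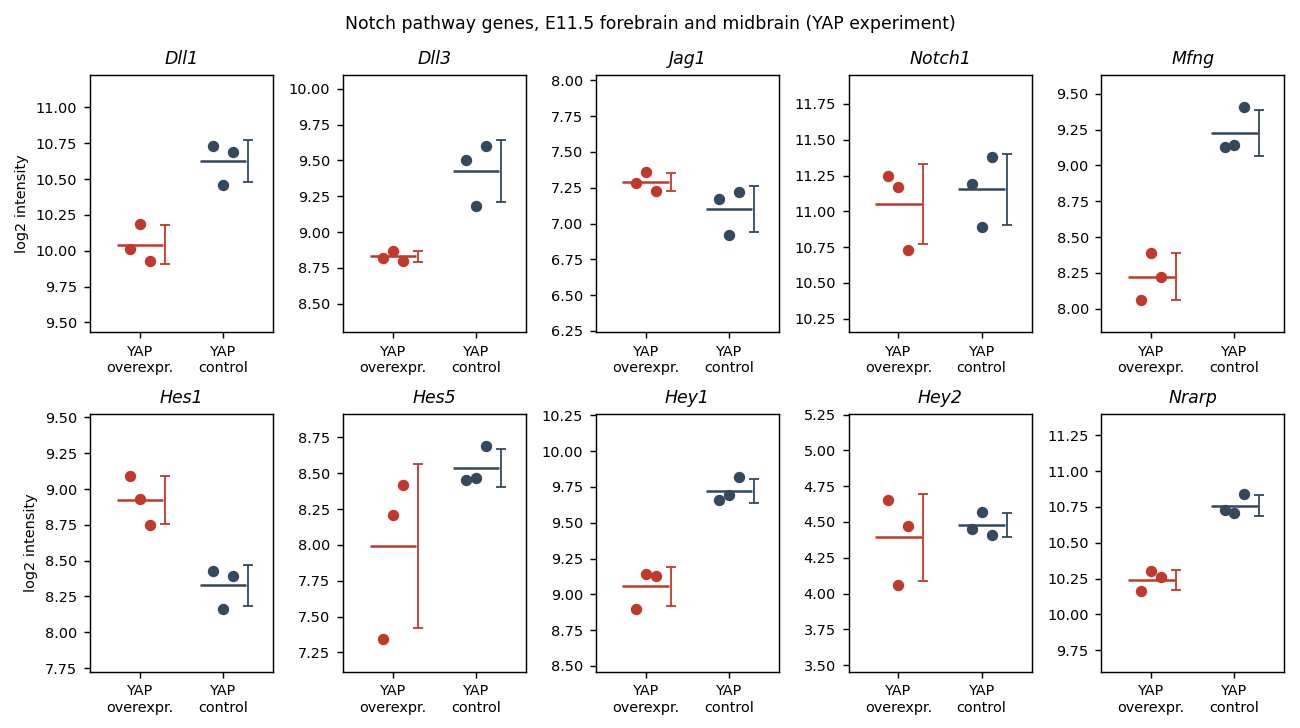
Log2 intensity (y axis, a separate range for each gene) of the 10 Notch pathway genes on each array of the YAP experiment, with YAP overexpression on the left in red and YAP control on the right in blue. Points are arrays, horizontal lines are means, and bars are ± SD (n = 3). Hes1 is higher on every YAP overexpression array (8.75 to 9.09) than on any YAP control array (8.16 to 8.43), and Hey1, Nrarp, Mfng, Dll1 and Dll3 are lower without overlap.

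Among the ligands, Dll1, which activates Notch on neighbouring cells, read 10.01, 10.19 and 9.93 with YAP overexpression, against 10.73, 10.46 and 10.69 in YAP controls. Every YAP overexpression array lay below every control array. The means were 10.04 ± 0.13 and 10.63 ± 0.15 (SD, n = 3 each), and Dll1 fell by 0.58 on the log2 scale (SE 0.09, limma adjusted p = 0.0031), or 1.5-fold.

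Dll3, a divergent ligand that in mouse does not activate Notch on neighbouring cells, read 8.82, 8.87 and 8.80 with YAP overexpression, against 9.50, 9.18 and 9.60 in YAP controls. The groups did not overlap, and the 3 YAP overexpression arrays lay within 0.07 of each other. Dll3 averaged 8.83 ± 0.04 with YAP overexpression and 9.43 ± 0.22 in YAP controls (SD, n = 3 each), and it fell by 0.60 (SE 0.10, limma adjusted p = 0.0055), or 1.51-fold. Dll1 and Dll3 thus fell by almost the same amount.

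Jag1, a ligand of the Jagged class, has 2 probe sets, and neither was called. The brighter read 7.28, 7.36 and 7.23 with YAP overexpression, against 7.17, 6.92 and 7.22 in YAP controls, groups that lay 0.01 apart at their nearest arrays. Its change was 0.19 (SE 0.24, limma adjusted p = 0.75), with a 95% interval from -0.33 to 0.71, which leaves out a fall as large as that of Dll1 but not a rise of that size. The dimmer probe set read 4.48, 5.09 and 5.42 against 4.91, 5.22 and 5.30, with a change of -0.15, and the groups overlapped. The probe sets of Jag1 therefore differed in sign.

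The 2 ligand promoters are shown because these genes fell together and because proneural factors and Hes repressors are known to bind short sites in ligand genes. Each line gives 250 bases before and 50 after the start of the gene in RefSeq (GRCm38.p6, minus strand, 5′ to 3′), and capitals mark the E-box CANNTG, bound by proneural factors, and the N-box CACNAG, bound by Hes repressors, searched on both strands.
Dll1, chr17:15376883-15377182: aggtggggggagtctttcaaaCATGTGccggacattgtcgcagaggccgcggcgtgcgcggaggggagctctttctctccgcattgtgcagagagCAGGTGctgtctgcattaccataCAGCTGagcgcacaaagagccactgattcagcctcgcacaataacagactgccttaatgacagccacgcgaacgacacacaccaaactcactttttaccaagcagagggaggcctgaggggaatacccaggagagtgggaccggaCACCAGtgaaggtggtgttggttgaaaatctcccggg
Dll3, chr7:28301736-28302035: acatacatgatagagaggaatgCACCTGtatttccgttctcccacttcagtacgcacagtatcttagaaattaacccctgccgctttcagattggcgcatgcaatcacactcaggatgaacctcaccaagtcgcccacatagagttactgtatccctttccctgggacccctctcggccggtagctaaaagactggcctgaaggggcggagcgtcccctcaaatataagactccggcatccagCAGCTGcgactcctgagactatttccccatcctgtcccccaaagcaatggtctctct
The Dll1 window held 3 E-boxes and 1 N-box, and the Dll3 window held 2 E-boxes and no N-box. Of 32851 RefSeq promoters of this length, 72.3% held an E-box and 42.5% an N-box, so such matches are common and only describe these letters.

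The receptor Notch1 read 11.25, 11.17 and 10.73 with YAP overexpression, against 11.19, 10.89 and 11.38 in YAP controls. The groups overlapped, and each held 1 array well below its others. The change of -0.10 (SE 0.14, limma adjusted p = 0.76) had a 95% interval from -0.40 to 0.20. The dimmer Notch1 probe set differed by -0.15 and was not called either (limma adjusted p = 0.593 over all probe sets).

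Mfng, a fringe glycosyltransferase that adds sugars to Notch and so tunes its response to ligands, had the largest fall of the 10 genes. It read 8.06, 8.39 and 8.22 with YAP overexpression, against 9.13, 9.14 and 9.41 in YAP controls, with a gap of 0.74 between the nearest arrays of the groups. The means were 8.22 ± 0.17 and 9.23 ± 0.16 (SD, n = 3 each). Mfng fell by 1.00 (SE 0.10, limma adjusted p = 0.00016), or 2.00-fold.

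Hes1 was the only one of the 5 effectors with a higher mean. Hes1 encodes a repressor that holds down proneural genes, and it read 9.09, 8.93 and 8.75 with YAP overexpression, against 8.43, 8.16 and 8.39 in YAP controls. All 3 YAP overexpression arrays lay above all 3 controls. The means were 8.92 ± 0.17 and 8.33 ± 0.15 (SD, n = 3 each), and Hes1 rose by 0.60 (SE 0.10, limma adjusted p = 0.00359), or 1.51-fold.

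Hey1, a related repressor also induced by Notch, read 8.90, 9.14 and 9.13 with YAP overexpression, against 9.66, 9.69 and 9.82 in YAP controls. The groups lay 0.52 apart at their nearest arrays. Hey1 fell by 0.67 (SE 0.09, limma adjusted p = 0.0009), or 1.59-fold. Nrarp, a small protein that Notch induces and that damps Notch signalling in return, fell on both of its probe sets. Its brighter probe set read 10.16, 10.30 and 10.26 with YAP overexpression, against 10.73, 10.71 and 10.84 in YAP controls, and fell by 0.52 (SE 0.07, limma adjusted p = 0.00105). The dimmer probe set read 7.58, 8.10 and 8.14 against 8.43, 8.57 and 8.63, and fell by 0.60 (SE 0.13, limma adjusted p = 0.0203 over all probe sets). The groups did not overlap on either probe set, and YAP overexpression replicate 1 was the lowest array on both.

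Hes5, a repressor that is among the most direct readouts of Notch in neural progenitors, was not called. It read 7.34, 8.21 and 8.42 with YAP overexpression, against 8.45, 8.47 and 8.69 in YAP controls. The groups did not overlap, but replicate 1 lay 0.87 below the next YAP overexpression array while replicate 3 lay 0.03 below the nearest control. The change was -0.55 (SE 0.21, limma adjusted p = 0.176), and it was -0.22 (adjusted p = 0.386) without YAP overexpression replicate 1. Replicate 1 thus decided the size of the Hes5 difference.

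Hey2, the other Hey repressor of the set, lay below the median of all probe sets on all 6 arrays of the YAP experiment, so little can be read from it there. It read 4.65, 4.06 and 4.47 with YAP overexpression, against 4.45, 4.57 and 4.41 in YAP controls, and the groups overlapped. The change was -0.08 (SE 0.17, limma adjusted p = 0.85).

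To set Hes1 against the other effectors, each value was expressed relative to the control mean of its gene, and the mean of Hes5, Hey1, Hey2 and Nrarp was subtracted from Hes1 on each array. This is a description with no test, since these genes were chosen with results known. The difference was 1.375, 1.050 and 0.728 on the YAP overexpression arrays, against 0.16, -0.15 and 0.00 on the YAP control arrays, and its mean was 1.051 ± 0.32 with YAP overexpression and 0.00 ± 0.15 in YAP controls (SD, n = 3 each). Hes1 and the mean of the other 4 moved apart on every YAP overexpression array, most on replicate 1, where Hes1 was highest and Hes5, Hey1 and Nrarp were lowest. The plot of effector values relative to controls shows this divergence by array.

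**Figure D2:**
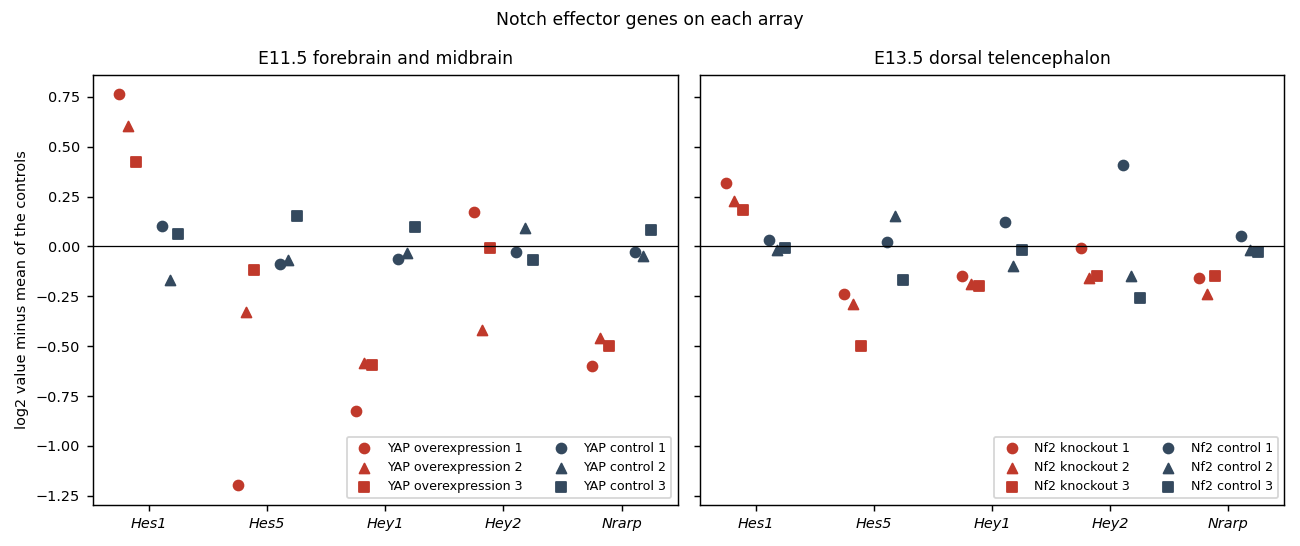
Log2 value minus the mean of the same experiment's controls (y axis) for the 5 effector genes on each array, with the YAP experiment on the left and the Nf2 experiment on the right. Red marks are YAP overexpression or Nf2 knockout arrays, blue marks their controls, and the marker shape gives the replicate. Hes1 lies above 0 on all 6 red arrays (0.18 to 0.76), and Hes5, Hey1 and Nrarp lie below 0 on all of them.

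The promoters of the effectors in the RefSeq table (GRCm38.p6, 5′ to 3′) are shown because Notch acts on these genes through Rbpj, and capitals mark its core motif TGGGAA on either strand. Hes1 and Hey1 had no entry there and were not searched.
Hes5, chr4:154960673-154960972, plus strand: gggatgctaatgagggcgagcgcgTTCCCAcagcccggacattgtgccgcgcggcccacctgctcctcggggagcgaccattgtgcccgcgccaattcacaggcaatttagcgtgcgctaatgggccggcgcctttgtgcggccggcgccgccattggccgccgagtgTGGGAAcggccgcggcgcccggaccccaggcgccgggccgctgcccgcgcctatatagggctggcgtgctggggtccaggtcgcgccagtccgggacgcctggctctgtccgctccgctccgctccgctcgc
Hey2, chr10:30842734-30843033, minus strand: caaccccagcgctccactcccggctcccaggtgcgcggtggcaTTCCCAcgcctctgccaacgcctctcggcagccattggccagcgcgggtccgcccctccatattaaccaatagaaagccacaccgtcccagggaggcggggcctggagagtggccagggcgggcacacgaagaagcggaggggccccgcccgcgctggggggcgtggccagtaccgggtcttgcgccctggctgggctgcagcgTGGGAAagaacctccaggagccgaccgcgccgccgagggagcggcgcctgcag
Nrarp, chr2:25180508-25180807, plus strand: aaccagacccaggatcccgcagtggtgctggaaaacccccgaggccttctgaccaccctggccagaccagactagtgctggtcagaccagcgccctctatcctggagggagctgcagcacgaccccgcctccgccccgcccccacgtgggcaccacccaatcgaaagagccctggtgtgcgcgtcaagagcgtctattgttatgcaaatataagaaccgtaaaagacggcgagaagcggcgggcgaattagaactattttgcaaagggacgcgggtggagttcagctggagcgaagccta
Hes5 and Hey2 each held 2 such matches, in opposite orientations, and Nrarp held none, while 25.6% of the 32851 promoters held at least 1. The Nrarp window, which lacks these letters, belongs to a gene that fell, and no match in this window says nothing about Rbpj elsewhere. A core motif of the TEAD factors, GGAATG on either strand, occurred in 14.7% of all promoters. Among these 3 effectors it occurred in Hey2 only, in letters that overlap its TTCCCA match.

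These are bulk tissues, and fewer cells of a type cannot be told apart from less RNA per cell. Neurons and committed progenitors express Dll1, Dll3 and Mfng, and their markers moved with these genes. Markers of neurons fell in 6 of 6 measured genes, and the calls of Elavl4 and Neurod1 held under all 22 alternative settings, while that of Map2 was lost under 11, those of Elavl3 and Stmn2 under 6 each and that of Tubb3 under 1. Their summed intensity was 6010 to 8450 with YAP overexpression and 10500 to 12900 in YAP controls. Markers of intermediate progenitors fell in 3 of 4 genes, Eomes, Btg2 and Gadd45g, with summed intensities of 1770 to 2360 with YAP overexpression and 3020 to 3630 in YAP controls. Markers of the ventral telencephalon fell in 4 of 5 genes, Dlx1, Dlx2, Dlx5 and Gsx2 (381 to 595 with YAP overexpression, 1530 to 2220 in YAP controls). Emx1, Emx2 and Lhx2, markers of the telencephalon, all fell (2700 to 2850 with YAP overexpression, 4010 to 4870 in YAP controls). The call of Emx1 was lost under 4 of 22 alternative settings, and its other probe set differed by -0.27 and was not called. None of 4 midbrain markers was called (3540 to 3920 with YAP overexpression, 3370 to 3850 in YAP controls, 0 genes with an unadjusted p under 0.05). Otx2, at means of 11.54 with YAP overexpression and 11.47 in YAP controls, weighed most in these midbrain sums. It also lay above the array median in the dorsal telencephalon. The means of En2 were 9.41 and 9.45, and those of En1 and Pax7 lay below the lowest array median of 5.03. The part of these cell types in the changes of the Notch genes was not tested.

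Markers of radial glia, the progenitors in which Hes genes act, had summed intensities that overlapped, 28200 to 33200 with YAP overexpression and 28900 to 30300 in YAP controls, with Vim higher, Fabp7 lower and 4 of 6 not called. Endothelial cells also use Hey1, Hey2 and Jag1, and none of their 9 markers was called (1750 to 1820 with YAP overexpression, 1660 to 1860 in YAP controls, 0 genes with an unadjusted p under 0.05). Mesenchymal and pericyte markers were not called in any of 7 genes (7950 to 8540 with YAP overexpression, 7820 to 10800 in YAP controls, 2 genes with an unadjusted p under 0.05). Of 5 choroid plexus markers 2 rose, as Hes1 did: Folr1 by 1.497 (limma adjusted p = 9.2e-05) and Foxj1 by 0.43 (limma adjusted p = 0.0381, a call lost under 13 of 22 alternative settings). The other 3, Ttr among them, had changes of -0.69 to -0.09 and were not called. The summed intensity was 384 to 465 with YAP overexpression and 215 to 303 in YAP controls. Folr1 had the highest mean of the 5 in both groups, 8.27 and 6.77. Of the 5 genes, 2 with YAP overexpression and 3 in YAP controls lay below the array median on all arrays of their group. No erythroid or microglial marker was called, though erythroid sums did not overlap (39300 to 45600 with YAP overexpression, 45700 to 50200 in YAP controls, 2 of 4 genes with an unadjusted p under 0.05). The part of these cells was not tested. The calls of Vim and Fabp7 were each lost under more than 10 of the 22 alternative settings.

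Of 40 further pathway genes listed by role, 34 were measured, and with YAP overexpression 1 rose, 2 fell and 31 were not called, with a median change of -0.02 against -0.01 over all genes. These 3 of 34 stand beside the 6.31% of all genes called. None of the 3 other receptors, the other ligand Dll4, the 4 ubiquitin ligases that act on ligands, the 4 other glycosyltransferases, the 7 proteases that cleave Notch or the 2 genes of the nuclear complex was called. Rbpj differed by -0.14 and Lfng, a fringe enzyme like Mfng, by 0.30 on its brighter probe set and -0.19 on its other, both not called. The plot of the other pathway genes gives each change with its SE.

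The member of that list that rose was Dtx4, a ubiquitin ligase gene of the Deltex family. It read 11.35, 11.36 and 11.35 with YAP overexpression, against 11.02, 10.87 and 10.98 in YAP controls, and it rose by 0.40 (SE 0.07, limma adjusted p = 0.00725), with its other probe set higher by 0.53. Hes6, which opposes Hes1 and favours neurogenesis, read 10.19, 10.60 and 10.22 against 11.00, 10.91 and 11.10, and fell by 0.67 (SE 0.10, limma adjusted p = 0.00247). Hes6 thus went the opposite way from Hes1, its relative in the same family. Fbxw7, whose product targets the Notch intracellular domain for degradation, fell by 0.29 (limma adjusted p = 0.0323), a call lost under 12 of 22 alternative settings, and its other probe set differed by -0.21 and was not called. Dtx1, another Deltex gene, differed by -0.78 and was not called (limma adjusted p = 0.0583), with a difference of -0.03 on its other probe set.

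Of 3 measured proneural genes, which drive Dll1 in committing cells, 2 fell. Neurog2 read 9.54, 9.79 and 9.05 with YAP overexpression, against 10.51, 10.09 and 10.42 in YAP controls, and fell by 0.88 (SE 0.16, limma adjusted p = 0.00631). Neurog1 fell by 0.65 (SE 0.11, limma adjusted p = 0.0043) on the brighter of its probe sets, with a difference of 0.03 on the other. Neurog2, Neurog1, Dll1, Dll3 and Hes6 were lower on every YAP overexpression array than on any control array.

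**Figure D3:**
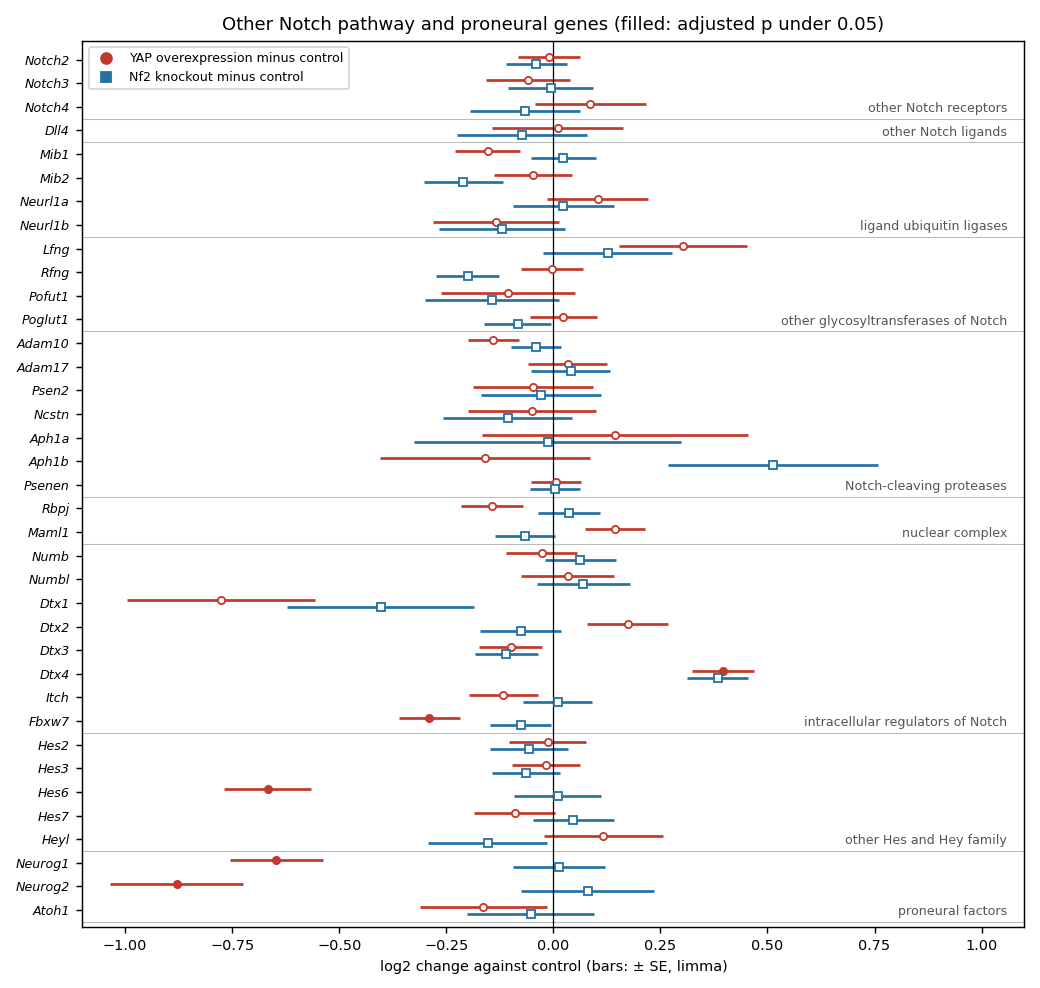
Log2 change against control (x axis) of 34 further Notch pathway genes and 3 proneural genes, grouped by role, with red circles for YAP overexpression and blue squares for Nf2 knockout. Bars are ± SE from limma (3 arrays against 3) and filled symbols passed an adjusted p under 0.05. Filled symbols are Dtx4, Fbxw7, Hes6, Neurog1 and Neurog2, all in the YAP experiment.

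The Nf2 experiment gave no call among the 10 genes by limma, where 0.252% of all genes were called, 0.205% as higher and 0.0468% as lower. Hes1 and Nrarp, 2 of the 10, had an unadjusted p under 0.05. The median change of the 10 was -0.12, against 0.00 over all genes. The groups did not overlap for 5 of the 10, with Hes1 higher and Mfng, Hes5, Hey1 and Nrarp lower, where this held for 12.7% of all genes, 6.6% higher and 6.09% lower. At their nearest arrays these groups lay from 0.05 (Hey1) to 0.15 (Hes1) apart. The same 5 genes had also been apart in the same direction in the YAP experiment. Being apart in the same direction in both experiments was seen in 3.41% of all genes, 583 of 17097. The 10 genes were chosen with earlier results of these data known, so these counts are a description and no test.

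**Figure D4:**
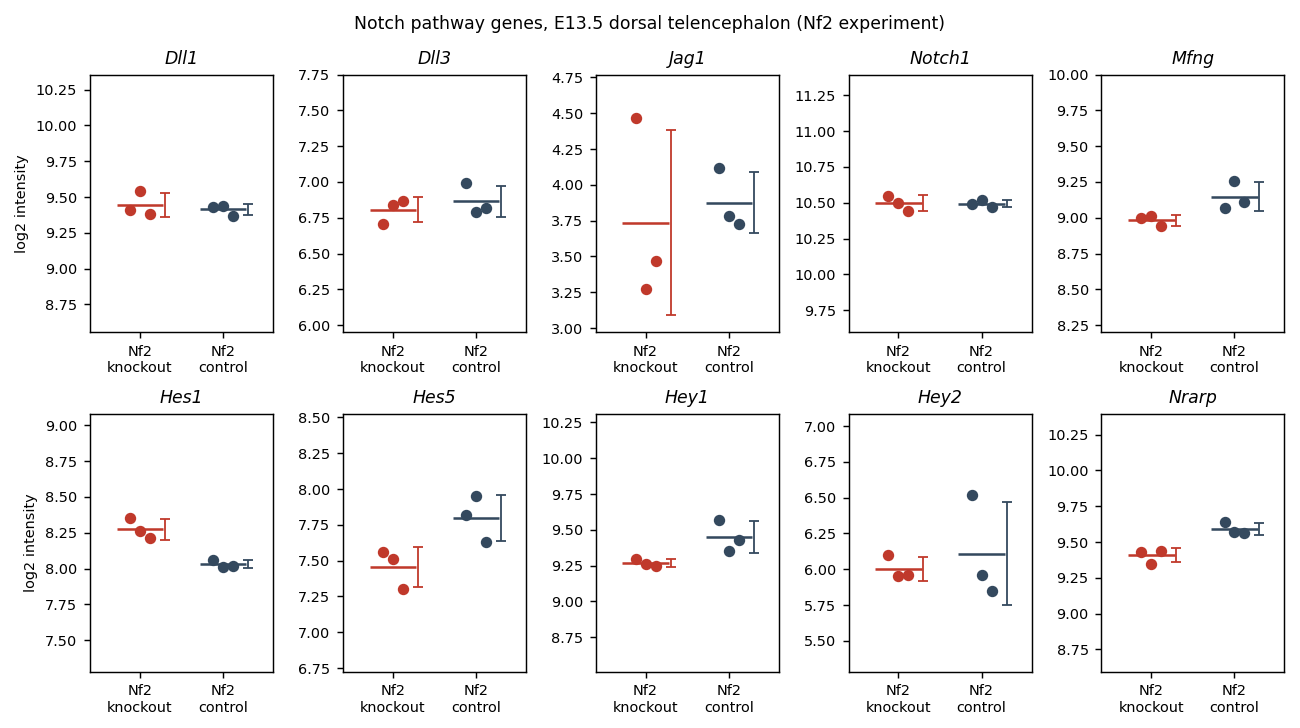
Log2 intensity (y axis, a separate range for each gene) of the 10 Notch pathway genes on each array of the Nf2 experiment, with Nf2 knockout on the left in red and Nf2 control on the right in blue. Points are arrays, horizontal lines are means, and bars are ± SD (n = 3). Hes1 lies at 8.21 to 8.35 in the knockouts and at 8.01 to 8.06 in the controls, and the Dll1 and Notch1 arrays of the groups overlap.

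Hes1 read 8.35, 8.26 and 8.21 in Nf2 knockouts, against 8.06, 8.01 and 8.02 in Nf2 controls. Every knockout lay above every control, and the same-numbered arrays differed by 0.29, 0.25 and 0.19. The means were 8.27 ± 0.07 and 8.03 ± 0.03 (SD, n = 3 each), a change of 0.24 (SE 0.10) or 1.18-fold that was not called (limma adjusted p = 0.72, unadjusted p = 0.0266).

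Nrarp read 9.43, 9.35 and 9.44 in Nf2 knockouts, against 9.64, 9.57 and 9.56 in Nf2 controls, a change of -0.18 (SE 0.07, limma adjusted p = 0.682). Its dimmer probe set read 7.11, 7.09 and 6.96 against 7.16, 7.23 and 7.16. Hey1 read 9.30, 9.26 and 9.25 in Nf2 knockouts, against 9.57, 9.35 and 9.43 in Nf2 controls, a change of -0.18 (SE 0.09, limma adjusted p = 0.819). Both genes were lower on all knockout arrays than on any control array, by amounts that did not pass the test.

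Hes5 read 7.56, 7.51 and 7.30 in Nf2 knockouts, against 7.82, 7.95 and 7.63 in Nf2 controls, a change of -0.34 (SE 0.21, limma adjusted p = 0.907). Mfng read 9.0, 9.01 and 8.94 in Nf2 knockouts, against 9.07, 9.26 and 9.11 in Nf2 controls, a change of -0.16 (SE 0.10, limma adjusted p = 0.905). The gap between the groups was 0.07 for Hes5 and 0.06 for Mfng at the nearest arrays, smaller than the SD within either control group.

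Hes1 minus the mean of the other 4 effectors, computed as before and likewise without a test, was 0.46, 0.45 and 0.43 on the Nf2 knockout arrays, against -0.12, 0.01 and 0.11 on the Nf2 control arrays. The mean was 0.45 ± 0.02 in Nf2 knockouts and 0.00 ± 0.12 in Nf2 controls (SD, n = 3 each). The difference thus had the same direction here, at a smaller size than the 1.051 of the YAP experiment.

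Neither the ligands nor the receptor was called. Dll1 read 9.41, 9.54 and 9.38 in Nf2 knockouts, against 9.43, 9.44 and 9.37 in Nf2 controls, a change of 0.03 (SE 0.09, limma adjusted p = 0.99) with a 95% interval from -0.17 to 0.23. Dll3 read 6.71, 6.84 and 6.87 against 6.99, 6.79 and 6.82, with an interval of its change from -0.28 to 0.16. For Dll1 and Dll3 these intervals leave out the falls estimated in the YAP experiment, 0.58 and 0.60, but those falls have an SE of their own. The test of the difference between the experiments called neither Dll1 (limma adjusted p = 0.0923) nor Dll3 (-0.54, limma adjusted p = 0.192). Notch1 differed by 0.00 on its brighter probe set, with an interval from -0.30 to 0.30, and by 0.10 on the other.

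Jag1 and Hey2 could not be read closely in this tissue. The brighter Jag1 probe set read 4.47, 3.27 and 3.47 in Nf2 knockouts, against 4.12, 3.78 and 3.73 in Nf2 controls, which puts 5 of the 6 arrays below the array median. Hey2 read 6.10, 5.95 and 5.96 in Nf2 knockouts, against 6.52, 5.96 and 5.85 in Nf2 controls, all above the median, and its groups overlapped. Both changes were small against their SE, with -0.14 (SE 0.24) for Jag1 and -0.11 (SE 0.17) for Hey2.

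Around these genes, no further pathway gene and no proneural gene was called by limma in the Nf2 experiment, where 3 of the 34 pathway genes had an unadjusted p under 0.05. Dtx4 came nearest, at 9.05, 9.01 and 8.95 in Nf2 knockouts, against 8.71, 8.51 and 8.64 in Nf2 controls, a change of 0.38 (SE 0.07, limma adjusted p = 0.0664) beside 0.40 in the YAP experiment. Dtx4 was called under 3 of 22 alternative settings, and its other probe set differed by 0.15. Hes6 and Neurog2, which fell in the YAP experiment, differed here by 0.01 and 0.08.

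Summed markers of neurons did not overlap in the Nf2 experiment either, at 5990 to 6520 in Nf2 knockouts and 6570 to 7060 in Nf2 controls, with no gene called and 0 of 6 at an unadjusted p under 0.05. Those of intermediate progenitors overlapped (3550 to 3960 in Nf2 knockouts, 3570 to 3770 in Nf2 controls), as did those of endothelial cells (646 to 965 in Nf2 knockouts, 882 to 1030 in Nf2 controls), with 4 of 9 endothelial genes at an unadjusted p under 0.05, all lower. Radial glia markers summed to 14400 to 15400 in Nf2 knockouts and 13500 to 13800 in Nf2 controls, without overlap. None of the 6 was called, 2 had an unadjusted p under 0.05, and their changes ran from -0.15 for Fabp7 to 0.36 for Nes. Vim, with the highest mean of the 6 (12.90 in Nf2 knockouts and 12.60 in Nf2 controls), weighed most in these sums. Erythroid markers summed to 8090 to 8320 in Nf2 knockouts and 9110 to 9500 in Nf2 controls, also without overlap, with none of 4 called, and microglial markers to 205 to 223 in Nf2 knockouts and 175 to 198 in Nf2 controls, with none of 5 called. Their part in the values of the Notch genes was not tested.

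Whether the effects of YAP overexpression and Nf2 knockout differ was tested as a contrast in the same limma fit, in which 0.281% of all genes were called. The manipulations also differ in stage and tissue, so these cannot be told apart from the kind of manipulation. Of the 10 genes only Mfng was called, with a change lower by 0.84 (SE 0.14) under YAP overexpression than under Nf2 knockout (limma adjusted p = 0.0333), and this call was kept under 8 of 21 alternative settings. The replicate block paired same-numbered arrays in both experiments, although the numbers were taken to pair only the Nf2 arrays. With this block Mfng was not called (limma adjusted p = 0.104) and neither was any other of the 10 genes. The difference was -0.61 (SE 0.13, limma adjusted p = 0.0923) for Dll1 and -0.49 (SE 0.12, limma adjusted p = 0.157) for Hey1. For Hes1 it was 0.35 (SE 0.14, limma adjusted p = 0.393), so a call of Hes1 in the YAP experiment alone does not show that its effects differed.

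**Figure D5:**
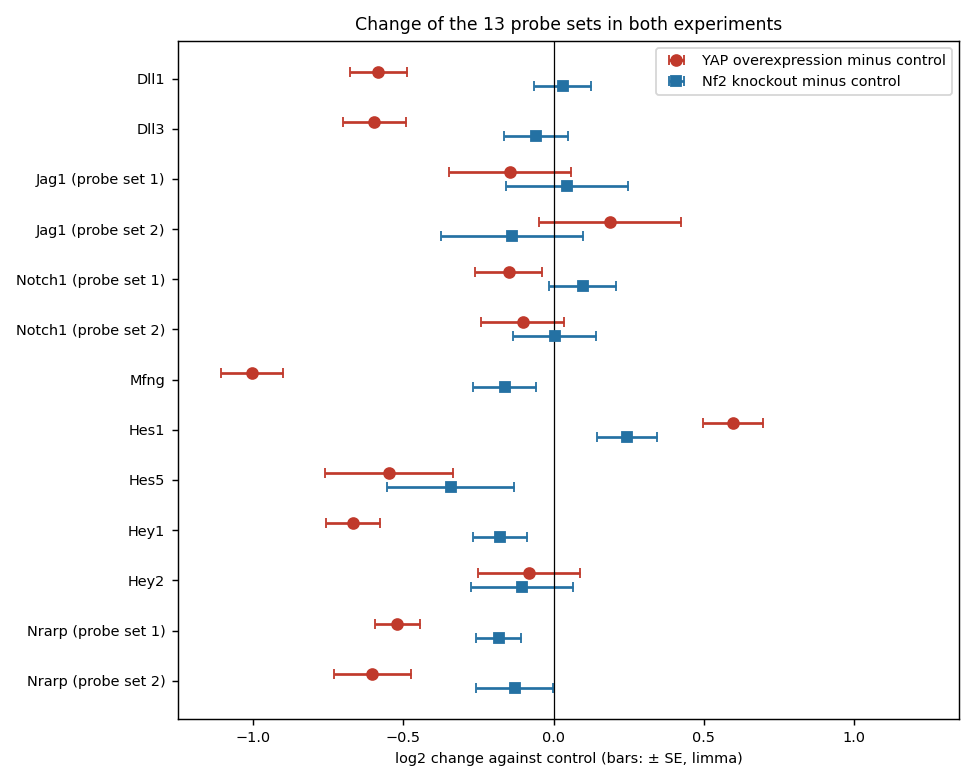
Log2 change against control (x axis) of all 13 probe sets of the 10 genes, with red circles for YAP overexpression and blue squares for Nf2 knockout. Bars are ± SE from the limma fit over all probe sets (3 arrays against 3). Hes1 is the highest in both experiments (0.60 and 0.24), Mfng is the lowest with YAP overexpression (-1.0), and Dll1 and Dll3 lie near 0 with Nf2 knockout.

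The genes most like Hes1 were sought over all 12 arrays by Euclidean distance, after the mean of each experiment was subtracted from each gene. The nearest 5 were Lix1 (0.256), Fndc3b (0.300), Rhobtb3 (0.316), Endod1 (0.322) and Fam169a (0.339), and all 5 rose with YAP overexpression, by 0.54 to 0.70. No other of the 10 Notch genes was among them. For Hey1 the nearest gene was Nrarp (0.244), followed by Tmem176a, Cdkn2c, Emx2 and Pgap1, at 0.281 to 0.292. For Mfng they were Clvs1, Tagln3, Rtl8c, Igfbpl1 and Srrm4os, at 0.275 to 0.388, all of which fell with YAP overexpression. These distances describe the 12 arrays and carry no test. The distance takes in the YAP change itself, so that the nearest genes moved the same way follows from how they were found.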

How the data were processed

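The deposited values are log2 intensities per probe set, to 2 decimals, for 12 arrays of biotin-labelled cRNA made from 100 ng of total RNA, per the labels. Per the submitters' processing notes, the tools were Affymetrix Expression Console 1.1, Partek 6.5 and RMA, with no roles given. Genes came from the platform table of 2016 (28898 probe sets with 1 symbol, 551 with several, 15588 with none), and 28689 symbols were updated by Entrez ID. For a gene with several probe sets, the one brightest on average across the 12 arrays was used, and probe sets with several symbols or none were assigned to no gene.

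Limma 3.58.1 (R 4.3.3) fitted 4 group means to all 12 arrays with moderated errors (8 residual and 4.096 prior degrees of freedom), two-sided, with Benjamini-Hochberg adjustment over 17097 genes. All 45037 probe sets were fitted in the same way for values of single probe sets. The pipeline was tested on simulated data. The number of arrays limits the precision. An exact permutation test of 3 arrays against 3 was not used.

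Replicate numbers in the labels recur across groups. In the Nf2 experiment the residuals of same-numbered arrays correlated at 0.271, 0.212 and 0.207, so the numbers were taken to pair arrays there, a reading that comes from the data. In the YAP experiment they correlated at 0.0971, -0.195 and -0.204, and no pairs were taken. YAP overexpression replicate 3 and YAP control replicate 2, of unlike number, correlated at 0.304, so values of this size alone do not establish pairs. The main fit used no pairs in either experiment.

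The genes and lists were chosen with earlier results of these data known. The text gives all 10 genes, the called genes of the pathway, family and proneural lists with up to 3 uncalled genes a list, called marker genes, and the 5 genes nearest to Hes1, Hey1 and Mfng. Promoter sequences are RefSeq's, and 7 of the 10 genes had an entry, all but Hes1, Hey1 and Mfng. Dll1 had 2 starts, of which the one at the end of the annotated gene is shown. Genes of the lists that matched no single-symbol probe set were not analysed here. Alternatives were other choices of probe set, scaling, filter, arrays, replicate block, weights and variance model, and each array left out.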

Additional observations from a re-analysis of the deposited data

Results flagged for a closer look

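Mfng was the only 1 of the 10 Notch genes whose change differed between the experiments at an adjusted p under 0.05 in limma's test of the difference. Its change under YAP overexpression minus that under Nf2 knockout was -0.84 on the log2 scale (limma adjusted p = 0.0333), from changes of -1.0 and -0.16. It was lower on 3 of 3 YAP overexpression arrays than on any YAP control array, and lower on 3 of 3 Nf2 knockout arrays than on any Nf2 control array. With the replicate block, which paired same-numbered arrays in both experiments, the call was lost (limma adjusted p = 0.104). Over the alternatives the adjusted p ran from 0.00409 to 0.106. With 1 array left out the call was kept in 1 of 12 runs, the one without YAP overexpression replicate 2. The stage and the tissue differ between the experiments too.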

How the results depend on the processing

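The 6 calls with YAP overexpression (Hes1, Hey1, Nrarp, Mfng, Dll1 and Dll3) kept their direction and stayed under the threshold in all 22 alternatives, with a highest adjusted p of 0.045 for Hes1 and 0.0442 for Dll3. The count of called genes in the Nf2 experiment stayed at 0 of 10 throughout. With replicate block, YAP overexpression gave 689 called genes (1078 without it), Nf2 knockout 21 (43) and their difference 21 (48), with 0 of the 10 Notch genes in the last, and the pairing changed no other call among the 10. With only the 6 arrays of an experiment 361 and 25 genes were called, and 4 of 13 probe sets in the YAP experiment in place of 7. With each probe set its own test 1704 probe sets were called with YAP and 0 of the 10 genes in the difference. Array weights gave 67 genes for Nf2. Leaving out dim probe sets gave 73, and a trended robust variance 129 genes and 3 of the 10, in the difference. With 1 array left out, YAP calls ranged from 529 to 1241 genes, with 674 to 688 without YAP overexpression replicate 1 or 3 or YAP control replicate 1 and 529 without YAP control replicate 3. Nf2 calls ranged from 20 to 50, with 20 without Nf2 knockout replicate 2, 25 without Nf2 control replicate 2 and 23 without Nf2 control replicate 3. Calls of the difference ranged from 21 to 161, with 161 without YAP overexpression replicate 2 and 21 to 29 without any of YAP overexpression replicate 1, YAP control replicates 1 and 3, Nf2 knockout replicates 1 and 3 and the 3 Nf2 controls, and with 0 to 2 of the 10 genes. Uncalled changes that turned sign had these ranges with 1 array left out: with YAP, Hey2 -0.21 to 0.0833 and Notch1 -0.24 to 0.0567, and with Nf2, Notch1 -0.0233 to 0.0317, Dll1 -0.0183 to 0.0617, Dll3 -0.10 to 0.00167, Hey2 -0.24 to 0.10 and Jag1 -0.51 to 0.0933. In the difference they were Hes5 -0.42 to 0.12, Hey2 -0.18 to 0.19 and Notch1 -0.24 to 0.0533. Notch1 under Nf2 also turned to -0.00861 with quantile normalization and to -0.00136 with array weights. The cause was not tested. The contrast of Hes1 with the other effectors moved by less than 1 SD in the alternatives, and without Hey2, a choice made after seeing the data, it was 1.17 for YAP and 0.48 for Nf2. Centring on array medians or quantile scaling moved the share of higher calls with YAP to 528 of 1000 and 526 of 1059, from 456 of 1078. The few arrays limit what small changes can be seen.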

Other observations

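Genes of the Id family encode proteins that bind and block proneural partners, and Id genes keep progenitors undifferentiated alongside Hes1. On the brightest probe set of each, none of the 4 was called in either experiment by limma, and 2 had an unadjusted p under 0.05 with YAP overexpression and 0 with Nf2 knockout. Those 2 were Id1, at -0.23, and Id3, both lower and so opposite to Hes1. Id4 was 12.59 ± 0.05 with YAP overexpression and 12.42 ± 0.17 in YAP controls (SD, n = 3 each), with a change of 0.17. Its groups did not overlap in either experiment, with Id4 higher in both, where 3.41% of all genes were apart in the same direction in both. Of the other 2 probe sets of Id4, 1 rose with YAP overexpression by 0.55 (limma adjusted p = 0.0361 over all probe sets) and the other differed by 0.19 and was not called. Id3 differed by -0.35 (limma adjusted p = 0.139) with YAP overexpression and by 0.05 with Nf2 knockout.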
